A study of Rattus norvegicus with 15 samples.

Results

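miR-322, miR-450a, miR-503 and miR-351 are 4 microRNAs encoded close together on the rat X chromosome, and they were followed here in liver after long-term ethanol feeding and during regeneration. They were chosen by name, as the rows of the array design that carry these names, with earlier results of these data known. All 4 members of the group were present among the 350 rat miRNAs on the array. Of the 350 miRNAs, 134 passed the detection filter and were tested. Among the members miR-322 and miR-450a passed it, and miR-503 and miR-351 did not, so every difference below concerns miR-322 and miR-450a.

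The 15 arrays carried liver RNA of rats, each array with a pool of 4 animals. Livers of chronic ethanol-fed rats (EtOH) and of rats pair-fed a carbohydrate control diet (CHO) were taken at partial hepatectomy (PHx, the surgical removal of part of the liver, after which the remnant regrows) and later. Before PHx there were 3 EtOH and 4 CHO pools. After PHx each diet had 1 pool at each of 1, 6, 12 and 24 h. Each animal gave its own tissue before PHx, so for 7 of the 8 pools the same animals were measured before and after PHx, and every animal had the surgery. The EtOH array before PHx that belongs to the 24 h pool was not analysed here. The 1 h and 6 h pools of each diet share 1 animal. No source used here gives the rats' strain, sex or age. Nothing beyond the animal lists says how pools were made. The p-values measure the spread between arrays of pools, in which single animals cannot be seen. In the main fit that spread includes any shift of the diet difference from time to time after PHx. The main fit treated the 15 arrays as independent, although 7 of the 8 pools were measured before and after PHx.

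A microRNA is a short RNA that guides Argonaute proteins to messenger RNAs, chiefly by pairing of its seed, the bases near its 5′ end. miRNAs encoded close together on 1 strand are often cut from a common primary transcript, and their mature levels also depend on processing and decay of each one. miR-322, called miR-424 in humans, and miR-503 belong to the extended miR-15 and miR-16 seed family, known for repressing cyclins and other drivers of cell division. miR-351 carries the seed of the miR-125 family, and miR-450a has a seed found in no other matched miRNA of this array.

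The mature sequences show which members could pair with like targets, with seed bases 2 to 8 in capitals (RefSeq, GRCr8, 5′ to 3′). The array names state no arm, and names without a star were matched here to the 5p arm.
miR-322-5p: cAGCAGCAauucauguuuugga
miR-503-5p: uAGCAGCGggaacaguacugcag
miR-351-5p: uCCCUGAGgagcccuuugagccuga
miR-450a-5p: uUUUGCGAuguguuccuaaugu
miR-450b-5p: uUUUGCGAuguguuccuaaua
miR-322 and miR-503 share bases 2 to 7 and differ in base 8. The guides of miR-322 and miR-450a have 5 identical bases when laid side by side from the 5′ end over 22 nt, so they are unlike in sequence. miR-450b-5p, a cluster miRNA that is not on the array, is shown because its first 20 bases are those of miR-450a-5p. Whether the miR-450a probes also bind miR-450b-5p was not tested, and the miR-450a signal is read here as that of either.

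All 6 hairpins of the cluster lie on the minus strand of the X chromosome. In order of transcription they are Mir322, Mir503, Mir351, Mir542, Mir450b-1 and Mir450a1, and the last base of Mir450a1 is 5308 bases after the first base of Mir322. Mature miR-322-5p lies at chrX:137726198-137726219, miR-503-5p at chrX:137725899-137725921, miR-351-5p at chrX:137725157-137725181 and miR-450a-5p at chrX:137720985-137721006 (GRCr8). The gaps between neighbouring hairpins run from 54 bases (Mir450b-1 to Mir450a1) to 2861 bases (Mir351 to Mir542). Mir322, Mir503 and Mir351 fall within the span of the long non-coding RNA gene LOC102550366 (X, 137724960 to 137729208), and Mir542, Mir450b-1 and Mir450a1 lie outside it. The members measured above background are therefore named for the first and the last hairpin of the cluster, as the map of the hairpins shows. The miR-450a signal could also come from Mir450b-1, the hairpin before the last.

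**Figure D1:**
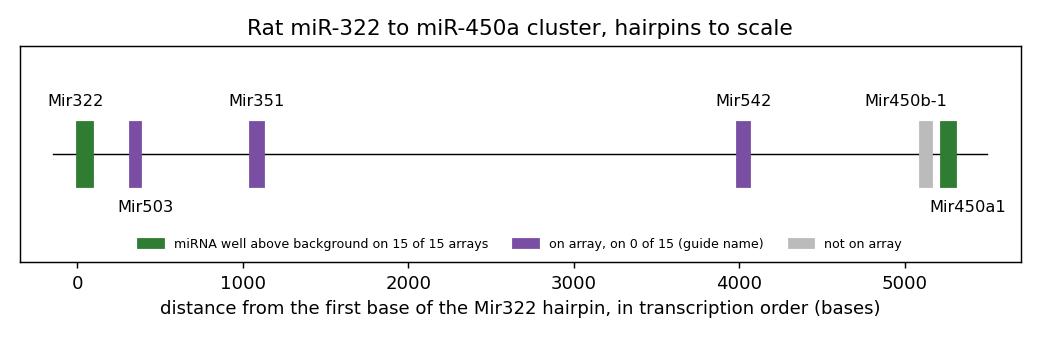
Map of the 6 hairpins of the cluster to scale, with distance in bases from the first base of Mir322 in the order of transcription; colour shows whether the unstarred or arm-named miRNA on the array was well above background. miR-322 (Mir322, at the start) and miR-450a (Mir450a1, at 5218 to 5308 bases) were above background on 15 of 15 arrays. The miRNAs of Mir503, Mir351 and Mir542 were so on 0 of 15. The miR-450a signal is read as that of miR-450a or miR-450b, whose hairpin Mir450b-1 is coloured as not on the array.

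Array values are the mean Cy3 spot signal of a probe, scaled so that the 185 probes detected on every array have a common 75th percentile. A probe was taken as detected where the scanner software marked a share of 0.5 or more of its spots as well above background. Signals were floored at 9.61 (3.26 on the log2 scale) before log2 was taken. miR-322 and miR-450a were detected on 15 of 15 arrays. miR-503 and miR-351 were detected on 0 of 15, with scaled signals of -1.87 to 0.892 for miR-503 and, over its 4 probes, at most 3.28 for miR-351. miR-503 and miR-351 were thus not well above background in either diet or at any time, and their diet differences were not measurable on these arrays. Levels are compared between samples within a miRNA only, since probes differ in how they bind.

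The array labelled EtOH before PHx replicate 3 stood apart from the other 14. Its 75th percentile before scaling was the lowest (236.5 against 288.1 to 515.5), and the typical spread between spots of a probe (median coefficient of variation) was 36.6%, where the others had 6.75% to 8.62%. On that array the spots varied by 43.3% for miR-322 and by 52.3% for miR-450a. Between 108 and 131 miRNAs were detected per array. The hepatocyte miRNA miR-122 gave 33467 to 44009 scaled units on the 15 arrays. The main results that rest on EtOH before PHx replicate 3 are given with and without it. EtOH before PHx replicate 1 was the next dimmest array (288.1, with 112 miRNAs detected), and its spots varied by 20.0% for miR-450a. EtOH replicate 2 had 410.5, and the 4 CHO arrays before PHx had 397.3 to 515.5. Brightness before PHx thus went in part with diet, and a fit without replicate 3 keeps replicate 1.

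miR-322 was lower in EtOH than in CHO liver before PHx. Its scaled signal was 50.5, 50.4 and 45.5 in the 3 EtOH pools and 67.8, 71.4, 70.8 and 71.0 in the 4 CHO pools. No EtOH pool reached the lowest CHO pool. EtOH averaged 48.8 ± 2.85 (SD, n = 3) while CHO averaged 70.3 ± 1.66 (SD, n = 4). On the log2 scale EtOH differed by -0.53 (SE 0.0902; adjusted p 0.00484, limma, Benjamini-Hochberg over 134 miRNAs). Without EtOH replicate 3 it was -0.48 (adjusted p 0.0151, limma), and without EtOH replicate 1 it was -0.55 (adjusted p 0.0113, limma). The call ended with the 75th percentile over all probes (-0.47, adjusted p 0.133) and with normexp background correction that adds 50 to every spot (-0.026, adjusted p 0.813, limma). In whole-liver RNA, fewer cells of a type and less RNA per cell cannot be told apart.

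miR-450a, at the other end of the cluster, was also lower in EtOH before PHx. The 3 EtOH pools had scaled signals of 15.5, 18.4 and 19.7, and the 4 CHO pools had 24.2, 25.2, 23.9 and 23.2. These groups, read from its brighter probe, did not overlap either. Means were 17.9 ± 2.16 (SD, n = 3) and 24.1 ± 0.82 (SD, n = 4), a log2 difference of -0.44 (SE 0.103, adjusted p 0.0152, limma). Without EtOH replicate 3 the difference was -0.51 (adjusted p 0.0155), and without EtOH replicate 1 it was -0.34 and missed the threshold (adjusted p 0.0504, limma). It turned to 0.21 higher in EtOH (adjusted p 0.176) with normexp background correction that adds an offset of 50 to every spot, and was -0.24 (adjusted p 0.173, limma) with an offset of 0. The offset was added before scaling. With the offset of 50 and before scaling, miR-450a was 67.9, 76.0 and 68.7 in EtOH and 81.8 to 88.4 in CHO. After scaling, the median difference of all tested miRNAs was 0.27 above that of the main fit.

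Both tested members were thus called lower before PHx, where 15.7% of the 134 tested miRNAs were called, 12.7% lower and 2.99% higher. The median log2 difference over all tested miRNAs was -0.08. All EtOH pools lay below all CHO pools for both members and for 21.6% of tested miRNAs. With 3 against 4 pools an exact two-sided permutation test over the 35 assignments cannot give a p below 0.0571, and both members reached that value.

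**Figure D2:**
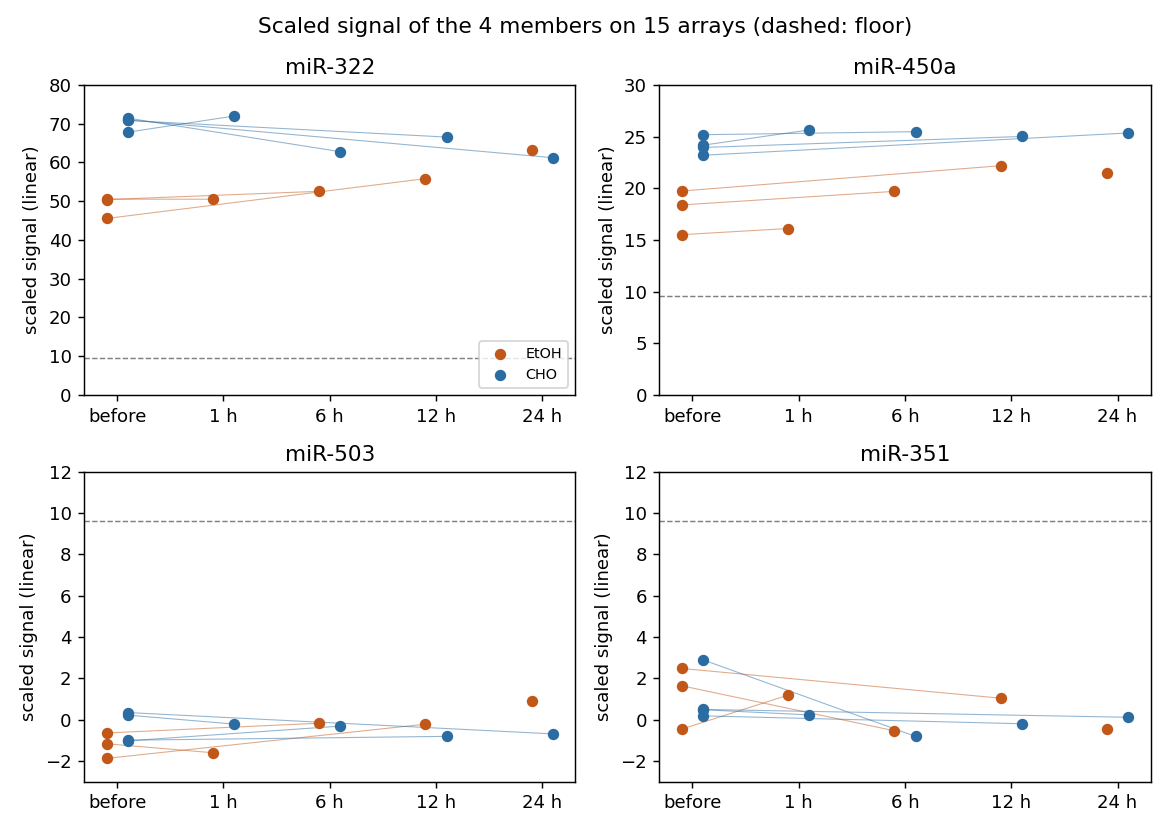
Scaled signal (linear) of the 4 members on the 15 arrays by time, EtOH in orange and CHO in blue; lines join the arrays of 1 pool before and after PHx, and the dashed line is the floor at 9.61. Before PHx the EtOH points of miR-322 (45.5 to 50.5) and of miR-450a (15.5 to 19.7) sit below all CHO points, and miR-503 and miR-351 stay under the floor throughout.

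The second probe of miR-322, dimmer than the one that stood for it, gave -0.55 for diet before PHx (adjusted p 0.00110, limma). The second probe of miR-450a gave -0.27, in the same direction but not called (adjusted p 0.140, limma). It was not detected on EtOH before PHx replicates 1 and 3, EtOH at 1 and 6 h and CHO at 24 h. On EtOH before PHx replicate 1 and EtOH at 1 h it was set to the floor. Its groups overlapped before PHx, with 12.6 scaled units in EtOH replicate 3 and 11.5 in CHO replicate 1. So the call of miR-322 was made by either probe and that of miR-450a by its brighter probe alone.

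The arrays sat on 2 slides, with the 1 h and 6 h pools on slide 1 and the 12 h and 24 h pools on slide 2. For diet before PHx, miR-322 differed by -0.46 within slide 1 (adjusted p 0.0163) and by -0.64 within slide 2 (adjusted p 0.0784), and by -0.53 with slide as a block (adjusted p 0.00817, limma). miR-450a differed by -0.55 within slide 1 (adjusted p 0.0225) and by -0.26 within slide 2 (adjusted p 0.394), and by -0.43 with the block (adjusted p 0.0198, limma). Slide 2 held 1 EtOH array before PHx, the one that stood apart.

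After PHx the EtOH pools remained the lower ones at most times. The miR-322 signal in EtOH was 50.5, 52.6, 55.8 and 63.2 at 1, 6, 12 and 24 h, against 72.0, 62.8, 66.5 and 61.2 in CHO. EtOH was the lower diet at 1, 6 and 12 h, and at 24 h the pair came within 2 units with EtOH the higher. Over the 4 times the log2 difference was -0.24 (SE 0.0836) and did not pass the test (adjusted p 0.0799, limma). It was -0.34 and passed without either 24 h array (adjusted p 0.0411, limma), and -0.24 and passed without EtOH before PHx replicate 3 (adjusted p 0.0480, limma). Without either 1 h array it was -0.15, not called. With the 75th percentile taken over all probes it was 0.0062, when the median of all tested miRNAs moved up by 0.24.

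In the scaled signals miR-450a was lower in EtOH at all 4 times. Its signal in EtOH was 16.1, 19.7, 22.2 and 21.4 at 1, 6, 12 and 24 h, against 25.6, 25.5, 25.0 and 25.4 in CHO. The CHO values span less than 1 unit, and every EtOH value lies below them. The share of tested miRNAs that separate in this way after PHx was not counted. The log2 difference over the 4 times was -0.36 (SE 0.0956, adjusted p 0.0416, limma), where 7.46% of tested miRNAs were called, 4.48% lower and 2.99% higher. That share is a count of 10, which ran from 1 to 33 as each array was left out. The call was lost in 10 of the 15 fits that left out 1 array, namely any array at 1, 6 or 24 h, CHO before PHx replicate 1, 2 or 3, or EtOH before PHx replicate 2. The value was -0.26 without either 1 h array (adjusted p 0.155, limma) and -0.43 to -0.36 without any other array. It was also lost in 11 of 16 other settings, with the same sign in each. At single times the sign turned with the 75th percentile over all probes (0.14 at 12 h, 0.015 at 24 h), with quantile normalization (0.13 and 0.012) and in the authors' deposited values (0.12 and 0.23). With slide as a block the adjusted p was 0.0516, and within slides the differences were -0.52 (slide 1, adjusted p 0.0269) and -0.21 (slide 2, adjusted p 0.517, limma). Those of miR-322 were -0.38 (slide 1, adjusted p 0.0269) and -0.10 (slide 2, adjusted p 0.843, limma).

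Between EtOH and CHO pools labelled with the same time, miR-450a was lower in EtOH in 7 of 7 pairs, 3 before and 4 after PHx, as were 17.9% of tested miRNAs. Its log2 differences ran from -0.67 at 1 h after PHx to -0.17 at 12 h. miR-322 was lower in 6 of 7 pairs, from -0.64 in the 12 h pools before PHx to -0.25 in those after it, and the exception was 0.05 at 24 h. After PHx 27.6% of tested miRNAs were lower in EtOH in 4 of 4 pairs.

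Single times have 1 pool per diet, and their errors borrow the spread of the pools before PHx. At 1 h the differences were -0.51 for miR-322 (adjusted p 0.0911) and -0.67 for miR-450a (adjusted p 0.185, limma). At 6 h they were -0.26 and -0.37, at 12 h -0.25 and -0.17, and at 24 h 0.05 and -0.24, with adjusted p between 0.338 and 0.982 (limma). Neither member was called at any single time with all arrays, and miR-322 was called at 1 h without EtOH before PHx replicate 3 (-0.51, adjusted p 0.0417, limma). Of the tested miRNAs, 0.746% were called at 1 h, 0% at 6 h, 3.73% at 12 h and 0% at 24 h. At an unadjusted p under 0.05 the fit counted 14, 18, 15 and 7 miRNAs at these times.

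**Figure D3:**
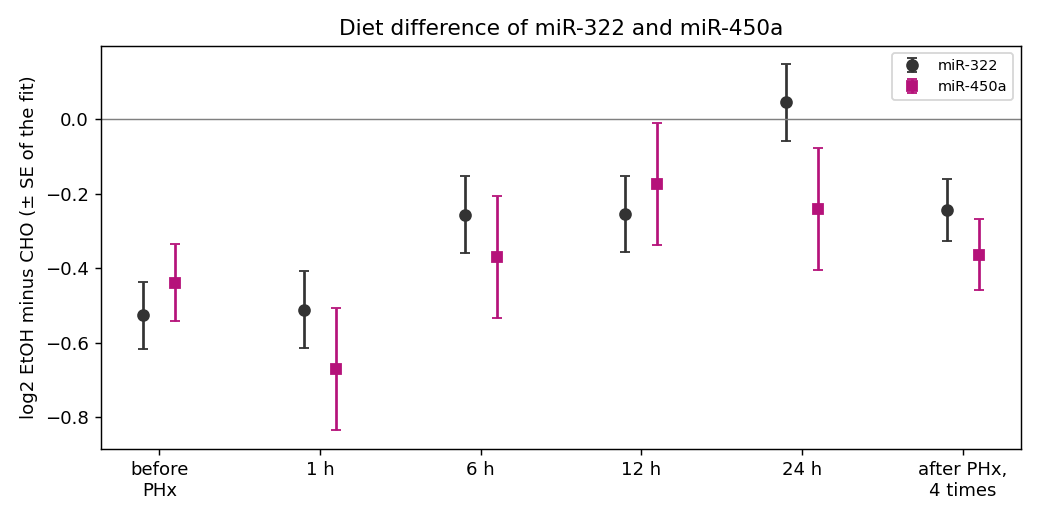
Diet difference (log2 EtOH minus CHO, point ± SE of the fit) of miR-322 and miR-450a before PHx, at each time after PHx and over the 4 times. Both start near -0.5 and are negative at 1, 6 and 12 h, and at 24 h miR-322 is at 0.05 and miR-450a at -0.24; with the 75th percentile over all probes miR-322 turns to 0.0062 over the 4 times and several single times change sign.

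The diet difference itself was compared before and after PHx. After minus before, it was 0.28 for miR-322 (SE 0.123, adjusted p 0.623) and 0.07 for miR-450a (SE 0.141, adjusted p 0.932, limma). Without EtOH before PHx replicate 3 these were 0.23 and 0.15 (both adjusted p 0.958, limma). No miRNA was called in this contrast (limma), and 9 had an unadjusted p under 0.05. A contrast of the single times with the pools before PHx was added after the values were seen. At 24 h it gave 0.57 for miR-322 (SE 0.117, unadjusted p 0.00222, adjusted p 0.297, limma) and 0.20 for miR-450a (adjusted p 0.988). So the smaller miR-322 difference at 24 h did not pass the test over 134 miRNAs.

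The change of each diet after PHx gives the 2 sides of the 24 h comparison. In EtOH, miR-322 was called higher at 24 h than before PHx (0.37, SE 0.0837, adjusted p 0.0487, limma), where 7.46% of tested miRNAs were called higher. In CHO its difference at 24 h was -0.20 (adjusted p 0.231), and -0.43 and called in the authors' deposited values (adjusted p 0.0358, limma). The EtOH call compares 1 pool at 24 h, which has no array before PHx here, with the 3 EtOH pools before PHx. It was lost in 11 of 13 other settings, of which normexp with an offset of 50 turned it to -0.057. It was also lost in 7 of 14 fits that left out 1 array, each of the 7 arrays before PHx. Without EtOH before PHx replicate 3 it was 0.32 (adjusted p 0.0634, limma). miR-450a differed by 0.27 in EtOH (adjusted p 0.392) and by 0.07 in CHO at 24 h (adjusted p 0.952, limma), neither called.

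Over both diets neither member changed beyond the error after PHx. The log2 changes of miR-322 at 1, 6, 12 and 24 h were 0.04, -0.03, 0.06 and 0.09, and those of miR-450a were -0.03, 0.11, 0.19 and 0.17. All 8 had adjusted p of 0.392 or more (limma), where 0%, 4.48%, 5.97% and 13.4% of tested miRNAs were called at these times. At 1 h the fit counted 4 miRNAs at an unadjusted p under 0.05.

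Arrays of the same animals before and after PHx give the change pool by pool. With its brighter probe miR-450a was higher after PHx in 7 of 7 pools, by 0.02 to 0.17, as were 6.72% of tested miRNAs. Its dimmer probe was higher after PHx in the 1 h CHO and 6 h EtOH pools. That probe was lower in the 12 h EtOH pool and the 6, 12 and 24 h CHO pools. In the 1 h EtOH pool it stayed at the floor. In the authors' deposited values miR-450a was higher in the 12 h EtOH pool and level in the 1 h CHO pool. Those values were lower after PHx in the other pools. miR-322 was higher after PHx by 0.29 in the 12 h EtOH pool and by 0.06 in the 6 h EtOH pool, and the difference was -0.00065 in the 1 h EtOH pool. In CHO it was 0.09 higher at 1 h and lower at 6, 12 and 24 h (-0.19, -0.09 and -0.21). In the scaled signals of the brighter probes the CHO pools thus had miR-450a higher and miR-322 lower at 3 of 4 times.

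Ordered by level, miR-322 was highest in CHO at 1 h and in CHO before PHx, followed by CHO at 12 h, EtOH at 24 h, CHO at 6 h, CHO at 24 h and then EtOH at 12, 6 and 1 h and before PHx. Neighbours in this order lay within 2.85 units, the larger SD before PHx, except at the steps below CHO before PHx, below CHO at 12 h, below CHO at 24 h and below EtOH at 12 h. miR-450a separated into 2 blocks, the 5 CHO conditions (24.1 to 25.6) above the 5 EtOH conditions (16.1 to 22.2). How many tested miRNAs form such blocks was not counted. No neighbouring conditions of miR-450a differed by more than 2.16 units, its larger SD before PHx.

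Whether the neighbours moved together was read from their ratio within each array, in which a scaling factor of the array cancels. The log2 signal of miR-322 minus that of miR-450a was 1.70, 1.45 and 1.21 in the EtOH pools before PHx and 1.49, 1.50, 1.56 and 1.61 in the CHO pools. The EtOH values spread on both sides of the CHO values. The diet difference of the ratio was -0.09 (SE 0.111, 95% interval -0.34 to 0.17, linear model with the same terms), with an exact two-sided permutation p of 0.571. Without EtOH replicate 3 its sign turned, to 0.037. After PHx it was 0.12 (95% interval -0.12 to 0.36). Unequal diet differences of the members, of a size within these intervals, were not detectable with these pools.

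The ratio before PHx depended on the slide and the probe. It was 0.08 within slide 1 and -0.38 within slide 2, where the only EtOH array is the one that stood apart. It was -0.28 with the dimmer probe of each member and -0.26 in the authors' deposited table.

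**Figure D4:**
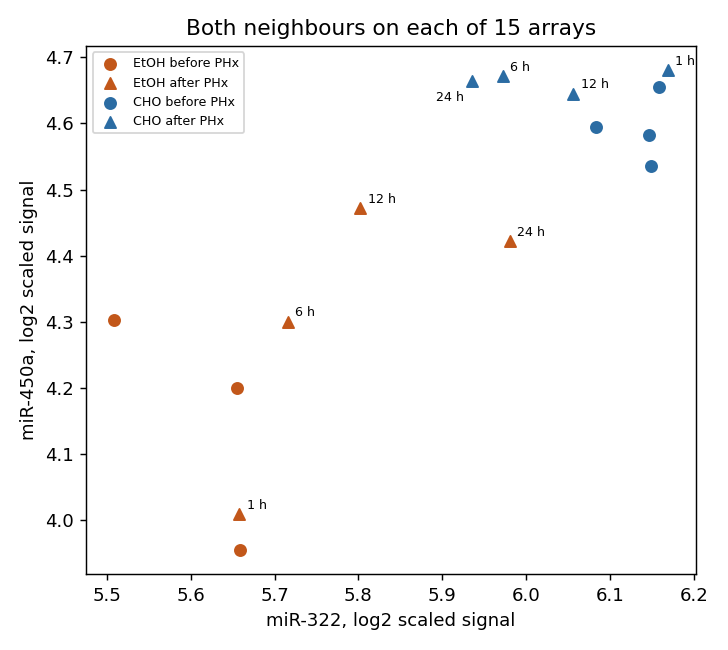
Log2 scaled signal of miR-322 (x axis) and miR-450a (y axis) on each of the 15 arrays, EtOH in orange and CHO in blue, circles before and triangles after PHx with the time. The EtOH arrays lie to the lower left and the CHO arrays to the upper right (r = 0.813 over 15 arrays), with r = 0.503 among the 7 EtOH and -0.402 among the 8 CHO arrays.

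Over all 15 arrays the log2 signals of miR-322 and miR-450a correlated with r = 0.813 (Pearson) and rho = 0.732 (Spearman). The arrays share animals, slides and scaling, so this is a description. Ranked by r over the other 133 tested miRNAs, miR-450a was 4 of 133 for miR-322, and miR-322 was 2 of 133 for miR-450a. The median r over all tested miRNAs was 0.161 for miR-322 and 0.252 for miR-450a. Without EtOH before PHx replicate 3, r was 0.854 and miR-450a ranked 1 of 133.

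Within a diet the likeness was weaker. The r was 0.503 over the 7 EtOH arrays (rank 31 of 132; 0.752 and rank 24 without the array that stood apart) and -0.402 over the 8 CHO arrays (rank 89 of 131). After the terms for diet and time had been removed, the residuals of the members had an r of 0.303 (rank 24 of 133, 8 residual degrees of freedom). The r of the log2 signals, with diet and time left in, was 0.922 within slide 1 and 0.724 within slide 2, each holding both diets. Both within-diet values and the residual r were below the r over all arrays.

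The miRNAs most like miR-322 over the 15 arrays were miR-532-5p (r = 0.859), miR-19b (r = 0.845) and miR-26b (r = 0.816). Those most like miR-450a were miR-20a (r = 0.844), miR-126 (r = 0.813), the miRNA of endothelial cells, and miR-19b (r = 0.785). Their log2 diet differences before PHx were -0.37 for miR-532-5p (adjusted p 0.0152), -0.69 for miR-19b (adjusted p 0.0104) and -0.63 for miR-20a (adjusted p 8.57e-05), all called lower (limma). miR-26b (-0.29, adjusted p 0.0534) and miR-126 (-0.18, adjusted p 0.144, limma) were not called. Of all tested miRNAs 12.7% were called lower. These miRNAs were picked by likeness over the same arrays, which differ by diet, so their diet differences are not independent of that choice.

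The other miRNAs of the cluster on the array gave no measurable level. The star form of miR-322, matched here to its 3p arm, had scaled signals of 2.42 to 7.19 and at most 30% of its spots above background. Both arms of miR-542, the hairpin between Mir351 and Mir450b-1, reached 3.43 (5p) and 1.22 (3p). All lay under the floor of 9.61 on 15 of 15 arrays.

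The 6 seed relatives encoded elsewhere were detected on 15 of 15 arrays and are shown because they could act on like targets. Bases 2 to 8 are in capitals (RefSeq, GRCr8, 5′ to 3′).
miR-15b-5p: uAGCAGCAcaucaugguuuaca
miR-16-5p: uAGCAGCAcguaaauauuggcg
miR-195-5p: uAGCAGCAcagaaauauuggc
miR-497-5p: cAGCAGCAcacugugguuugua
miR-125a-5p: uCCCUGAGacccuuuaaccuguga
miR-125b-5p: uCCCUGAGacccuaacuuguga
The first 4 carry bases 2 to 8 of miR-322 and bases 2 to 7 of miR-503, and the last 2 carry bases 2 to 8 of miR-351. Before PHx the log2 diet differences of the miR-322 seed relatives were 0.11 for miR-15b, -0.22 for miR-16, -0.10 for miR-195 and -0.15 for miR-497, with adjusted p of 0.201 to 0.680 (limma). None of these 4 was called while miR-322 was, where 15.7% of tested miRNAs were called. Whether miR-322 differed more than they did was not tested. Of the miR-351 relatives, miR-125b-5p was called lower (-0.39, adjusted p 0.0152) and miR-125a-5p was not (-0.12, adjusted p 0.459, limma). After PHx none of the 6 was called, where 7.46% of tested miRNAs were, with differences of -0.24 for miR-125b-5p to 0.13 for miR-15b.

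Summed signals of markers of 4 other liver cell classes did not overlap between the diets before PHx. After PHx the sums of all 4 classes overlapped. Signals under the floor, such as those of undetected markers, entered the sums at 9.61. Among single tested miRNAs, 21.6% had all EtOH pools below all CHO pools before PHx, and 12.7% were called lower. No such share was counted for sums. The summed scaled signal of 5 stellate and mesenchymal miRNAs was 525 to 594 in EtOH and 617 to 668 in CHO, with none of 5 called and a median log2 difference of -0.24. That of the endothelial miR-126 and miR-126* was 1064 to 1133 in EtOH and 1209.9 to 1299.6 in CHO, with none of 2 called. Of the leukocyte miRNAs 1 of 3 tested, miR-142-3p, was called lower (sum 147 to 163 against 164 to 197). miR-142-5p was not detected, and miR-155 was not on the array. Of the biliary and other epithelial miRNAs 2 of 3 tested were called lower (sum 68.3 to 77.9 against 87.3 to 102.3), and miR-200c and miR-141 were not detected. That of the hepatocyte miR-122 overlapped between the diets (33467 to 39202 in EtOH, 33552 to 40386 in CHO). The summed erythroid miR-451 and miR-144 overlapped before PHx (629 to 899 in EtOH, 621 to 1230 in CHO). After PHx it was 873 to 1210 in EtOH and 361 to 849 in CHO, without overlap and with EtOH the higher (median log2 difference 0.45, none of 2 called). The share of tested miRNAs with EtOH above CHO in this way was not counted. After PHx no marker of any class was called, where 7.46% of tested miRNAs were. The part of these shifts in the differences of miR-322 and miR-450a was not tested.

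**Figure D5:**
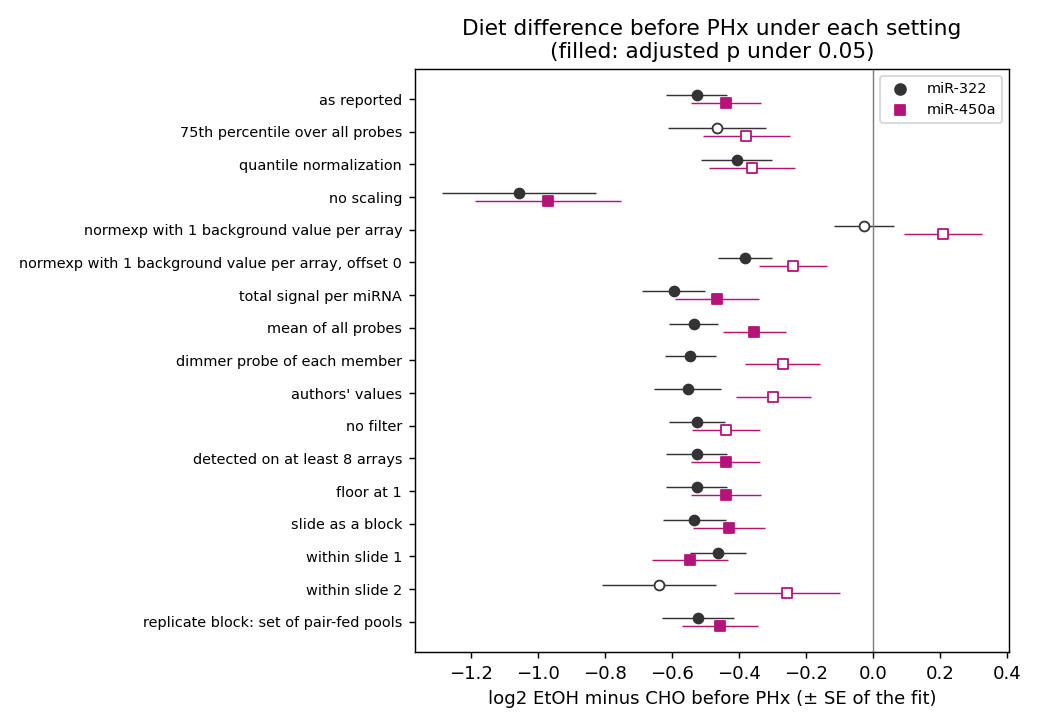
Log2 diet difference before PHx (EtOH minus CHO, ± SE of the fit) of miR-322 and miR-450a as reported and under each alternative; filled symbols have an adjusted p under 0.05. miR-322 stays negative from -1.06 (no scaling) to -0.026 (normexp with 1 background value per array, offset 50), the setting in which miR-450a turns to 0.21.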

How the data were processed

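Liver miRNA was measured on 15 single-colour Cy3 arrays, 1 per pool and time. Spot intensity in the deposited files was background-subtracted by Agilent Feature Extraction (10.5.1.1 in the file headers). The submitters' processing notes name version 10.7.3.1. The authors' deposited log2 value table served as an alternative. Its columns share 1 maximum and 1 75th percentile, its medians lay between 0.106 and 1.10, and no source used here gives its method or centring. Outlier spots (2.38%) were left out, and each probe's mean processed signal was scaled, floored and log2-transformed. The brightest probe stood for its miRNA, and miRNAs detected on at least 3 arrays were tested, 134 of 350. limma 3.58.1 in R 4.3.3 fitted 1 diet term before PHx, 1 after it and 1 term per time (8 residual degrees of freedom). Single times came from a fit of 10 cells of diet and time (5 degrees of freedom). Adjusted p under 0.05 was a call. The fit was tested on simulated data. Array number limits the precision. The pairing of arrays before and after PHx comes from the labels' animal lists. Named miRNAs were the members, the cluster, seed relatives and the 3 most alike per tested member. The members and lists were chosen with earlier results of these data known. Normexp used the median spot signal.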

Additional observations from a re-analysis of the deposited data

Results flagged for a closer look

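Of 9 checks of a group of 4 arrays for a value far from the others, 1 stood out, and chance gives about 1 in 20. Among the 4 CHO pools before PHx, miR-322 was lowest in replicate 1 (67.8 scaled units against 70.8 to 71.4), a gap on the log2 scale of 0.836 of the group's range, where 0.829 is the critical value for 4 samples. Without that pool the diet difference of miR-322 before PHx was -0.54 (adjusted p 0.0138, limma).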

How the results depend on the processing

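Before PHx, miR-322 was lower in EtOH in all 16 alternatives run and was called in 13 of them, and miR-450a was lower in 15 and called in 8. For diet before and after PHx, alternatives not named here kept each direction and call. With the 75th percentile over all probes, the diet difference before PHx was -0.47 for miR-322 (adjusted p 0.133) and -0.38 for miR-450a (0.161), and after PHx 0.0062 and -0.11 (limma). Relative to the median of all tested miRNAs these were -0.44, -0.36, -0.18 and -0.30. Uncalled values that changed sign there were miR-322 at 12 h (-0.15), miR-450a at 6 and 12 h (-0.022 and -0.025), and diet at 6 h (miR-322, 0.0017), 12 h (0.064 and 0.14) and 24 h (miR-450a, 0.015). With quantile normalization miR-450a was -0.36 before and -0.16 after PHx, neither called, and signs changed for miR-322 at 12 h (-0.26), diet at 12 h (0.16 and 0.13), miR-450a diet at 24 h (0.012) and its CHO change at 24 h (-0.097). Without scaling the median moved by -0.45 before PHx. miR-450a was then -0.36 after PHx (not called), 0.19 at 1 h, 0.16 for diet at 24 h and -0.28 for its CHO change at 24 h.

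With normexp and 1 background value per array (offset 50), diet before PHx was -0.026 for miR-322, 0.21 for miR-450a and -0.23 for their ratio, and miR-450a after PHx was -0.080. After minus before was -0.077 and -0.29. Changes were -0.076 (miR-322, 1 h), -0.063 and -0.080 (12 h), -0.027 and -0.039 (24 h), -0.057 and -0.28 (EtOH, 24 h) and 0.0023 (miR-322, CHO, 24 h), and diet was 0.044 for miR-450a at 6 h and -0.085 for miR-322 at 24 h. An offset of 0, chosen after seeing the data, gave miR-450a -0.24 and -0.22 before and after PHx and miR-322 -0.0027 at 1 h. Normexp with each spot's background was not usable. On 2 arrays it gave miR-450a 144 and 694 against 68.6 to 89.1 on the others.

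The total signal per miRNA gave miR-322 -0.29 after PHx (called), -0.024 for diet at 24 h and miR-450a -0.051 for its CHO change at 24 h. The mean of all probes gave -0.25 (called), -0.013 and -0.050. The dimmer probes, chosen after seeing the data, gave miR-450a -0.27 before and after PHx, the ratio -0.28, and miR-450a -0.0027 (after minus before), -0.0028 (6 h), -0.062 (24 h) and -0.17 (CHO, 24 h), and miR-322 diet at 24 h -0.071. The authors' deposited table gave miR-450a -0.30 and -0.073, the ratio -0.26 and -0.12, changes of -0.081 (miR-450a, 6 h), -0.20 and -0.026 (12 h), -0.092 (miR-322, 24 h) and -0.24 (miR-450a, CHO, 24 h), and miR-450a diet at 12 and 24 h of 0.12 and 0.23. Without a filter miR-450a kept -0.44 and -0.36 with adjusted p of 0.0577 and 0.153 (limma), with more miRNAs tested. Slide as a block left miR-450a at -0.36 after PHx (adjusted p 0.0516, limma). Within slide 1 miR-322 was -0.38 after PHx and the ratio 0.083 before. Within slide 2, with fewer arrays, before PHx miR-322 was -0.64, miR-450a -0.26 and the ratio -0.38, and miR-450a after PHx -0.21.

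EtOH and CHO pools labelled with the same time share a slide and a label, and their deviations before PHx correlated by -0.132 to 0.167 over 134 miRNAs. With these sets as a replicate block miR-450a was -0.36 after PHx (adjusted p 0.0554, limma) and 0.070 at 1 h. With the pool of animals as a block it was 0.070 at 1 h and miR-322 was -0.12 at 24 h. The blocks changed no other call or direction of the members.

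Leaving out each array in turn gave -0.55 to -0.48 for miR-322 before PHx, -0.34 to -0.15 after PHx, -0.51 to -0.34 for miR-450a before and -0.43 to -0.26 after PHx. Ranges that crossed 0 were -0.14 to 0.22 (miR-322, 1 h), -0.11 to 0.28 (miR-322, 24 h), -0.23 to 0.18 (miR-450a, 1 h) and -0.024 to 0.18 (miR-450a, after minus before), and the ratio before PHx ran from -0.21 to 0.037, the latter without EtOH replicate 3. Where an arm lost its lone array, the other arrays set the spread. Where not named above, the cause of a change was not tested.

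The count of called miRNAs was 21 before PHx (17 lower) and 10 after (6 lower). It was 34 and 33 without EtOH before PHx replicate 3. Leaving out any 1 h or 6 h array brought the count after PHx to 1, leaving out CHO replicate 1 or 2 of the pools before PHx brought it to 2, and the count before PHx was 14 without EtOH replicate 2. Before and after PHx scaling by the 75th percentile of all probes gave 2 (1 lower) and 6 (0 lower), and it was 9 (5 lower) and 6 (1 lower) with quantile normalization and 76 (76 lower) and 2 (2 lower) without scaling. Signal over background limits miR-503 and miR-351, and the lone pools limit every single time.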
